A study of Mus musculus with 8 samples.

Results

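The 44 cell cycle genes described here are 25 genes of mitosis and 19 genes of DNA replication (S phase), and were chosen by name: every row of these genes was read in the UMI tables of 8 MC38 tumors, in which 24787 genes are listed. All 44 were listed and all 44 passed the filter on low counts in each of the 4 cell classes compared. The tumors were grown subcutaneously from MC38, a mouse colon carcinoma line, in female C57BL/6J mice that were 8 weeks old per the study's methods, and were taken 24 hours after mice had received saline (3 tumors), free R848 (3 tumors) or medium BPDs (2 tumors) in 1 dose. R848 is a small-molecule agonist of Toll-like receptors TLR7 and TLR8, and the medium BPDs are bottlebrush polymer prodrugs that carry R848 on a linker with an intermediate rate of release. Each tumor was profiled by Seq-Well, a microwell method for single-cell RNA sequencing, after CD45+ and CD45- cells had been loaded in a ratio of 9:1, so the number of cells per class is partly set by the sort. The question was how much of each class was dividing and whether the genes of division differed between the treatments.

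A dividing cell copies its DNA in S phase and separates the copies in mitosis. In late G1 the transcription factor E2F1 and the cyclins E (Ccne1, Ccne2) drive the genes of replication: Cdc6 and the Mcm proteins form and load the replicative helicase, Cdc45 and Gins2 complete it, Pcna is the clamp that holds the polymerase on DNA, and Tyms, Tk1, Rrm1 and Rrm2 supply nucleotides. From S phase to mitosis the kinase Cdk1, with its cyclins Ccna2, Ccnb1 and Ccnb2, acts with a group of proteins that build the spindle (Aurka, Tpx2, Kif11, Nusap1, Prc1, Ckap2l), attach and check the chromosomes (Bub1, Bub1b, Cenpe, Cenpf, Spc25, Aurkb, Birc5), open the exit from mitosis (Cdc20, Ube2c) and divide the cell (Anln, Kif23, Kif20a, Plk1). Mki67 coats mitotic chromosomes and Top2a untangles DNA, and both are common markers of cycling cells. Macrophages in tumors can come from circulating monocytes or divide in place, and activated T and NK cells divide in bursts.

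The promoters of several members are shown because the genes share sequence letters as well as timing. RefSeq promoter windows on GRCm38.p6, from 250 bases before to 50 bases after the annotated start, were found for 37 of the 44 members, 21 mitotic and 16 S-phase. Both strands were searched for CCAAT, for the CHR letters TTTGAA and TTTAAA (the second reads the same on both strands) and for the E2F letters TTTCCCGC, TTTCGCGC, TTTGCCGC and TTTGGCGC. The 250 bases before the start are printed 5′ to 3′ on the gene's strand, with motif letters on either strand in capitals, where a run of capitals can be 1 motif or several that overlap; matches after the start are counted but not printed. Cdk1 (chr10:69352913-69353162) holds all 3 kinds of motif, Ccnb1 (chr13:100786487-100786736) and Top2a (chr11:99024190-99024439) stand for the mitotic group, Bub1b (chr2:118597961-118598210) and Mcm6 (chr1:128359706-128359955) are members that differed between treatments, and Mcm5 (chr8:75109259-75109508) holds, like Mcm6, E2F letters that overlap on the 2 strands.
Cdk1: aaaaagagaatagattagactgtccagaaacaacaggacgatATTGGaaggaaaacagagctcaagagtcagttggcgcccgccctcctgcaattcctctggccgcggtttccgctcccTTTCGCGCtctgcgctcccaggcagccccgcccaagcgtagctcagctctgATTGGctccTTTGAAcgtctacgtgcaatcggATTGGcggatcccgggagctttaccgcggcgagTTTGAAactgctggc
Ccnb1: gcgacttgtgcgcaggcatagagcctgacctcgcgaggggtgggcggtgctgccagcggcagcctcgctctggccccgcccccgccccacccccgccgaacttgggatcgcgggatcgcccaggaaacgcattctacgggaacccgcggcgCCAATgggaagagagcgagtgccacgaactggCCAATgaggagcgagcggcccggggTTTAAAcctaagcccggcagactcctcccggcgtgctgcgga
Top2a: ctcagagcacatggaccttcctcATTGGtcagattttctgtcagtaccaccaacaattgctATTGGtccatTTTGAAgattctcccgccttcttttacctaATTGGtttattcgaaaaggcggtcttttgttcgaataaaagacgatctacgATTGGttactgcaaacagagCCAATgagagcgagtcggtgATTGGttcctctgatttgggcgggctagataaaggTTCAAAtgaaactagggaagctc
Bub1b: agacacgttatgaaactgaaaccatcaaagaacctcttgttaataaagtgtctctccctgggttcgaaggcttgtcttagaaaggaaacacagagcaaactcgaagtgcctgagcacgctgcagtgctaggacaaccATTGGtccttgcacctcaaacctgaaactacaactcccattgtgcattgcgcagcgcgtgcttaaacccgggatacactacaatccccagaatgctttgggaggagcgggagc
Mcm6: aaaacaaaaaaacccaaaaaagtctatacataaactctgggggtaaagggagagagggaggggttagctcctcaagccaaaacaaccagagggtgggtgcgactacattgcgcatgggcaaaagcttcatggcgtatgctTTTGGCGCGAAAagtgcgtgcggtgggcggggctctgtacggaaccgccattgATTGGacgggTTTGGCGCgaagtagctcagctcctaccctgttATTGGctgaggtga
Mcm5: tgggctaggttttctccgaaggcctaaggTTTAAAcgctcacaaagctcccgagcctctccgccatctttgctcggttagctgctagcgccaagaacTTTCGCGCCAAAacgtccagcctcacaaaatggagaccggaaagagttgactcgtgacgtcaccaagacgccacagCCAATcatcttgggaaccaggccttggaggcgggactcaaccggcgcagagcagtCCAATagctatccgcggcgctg

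CCAAT was found in 18 of the 21 mitotic windows (85.7%) and in 10 of the 16 S-phase windows (62.5%), beside 37.9% of 27025 genes in the promoter table. The CHR letters were in 19 of 21 mitotic windows (90.5%) and 6 of 16 S-phase windows (37.5%), beside 27.8% of all genes. The E2F letters were in 1 mitotic window (4.76%), that of Cdk1, and in 6 S-phase windows (37.5%), beside 2.32% of all genes. CCAAT and the CHR letters stood together in 17 mitotic windows (81.0%), in 4 S-phase windows (25%) and in 10.9% of all genes. These are counts of letters and do not show that a factor binds.

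Of 10791 barcodes, 9886 cells were kept, from 5867590 to 12422614 UMIs per tumor, with a median of 3247 to 6928 UMIs per kept cell. Cells were clustered without any gene of the cell cycle lists, and clusters were named by marker genes: 5229 monocyte/macrophage-like cells (C1qa, C1qb, C1qc, Apoe, Mrc1 or Vcan among the leading genes of most of their clusters), 957 NK-like cells (Gzma, Ncr1), 723 T-like cells (Cd3d, Cd3g) and 1744 MC38-like cells (Rhox5, Col6a2). Barcodes seen in more than 1 library numbered 11 of 9841, and 100 cells (1.01%) were scored as doublets and kept. Saline replicate 2 stood apart in the monocyte/macrophage-like class, where its share of cycling cells was the highest of the 8 tumors, as was its level of every member except Ccnb1, and shares, counts of calls and medians against saline in this class are also given without it. Whether the samples of a group came from separate cages or days is not stated, so p-values measure the spread between these tumors.

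A cell was called cycling when it held at least 2 UMIs of Mki67 and Top2a together. Over all 8 tumors, 69.8% of MC38-like cells (95% Clopper-Pearson interval 67.6 to 71.9%), 56.2% of T-like cells (52.5 to 59.8%), 48.3% of NK-like cells (45.1 to 51.5%) and 20.2% of monocyte/macrophage-like cells (19.1 to 21.3%) were cycling by this rule. Such intervals cover counting error only. Neutrophil-like cells, which do not divide, gave 8 of 130 cells (6.15%, 2.69 to 11.8%) at a median of 3530 UMIs, which is taken as the background of the rule. Cells of the 4 classes were deeper, at a median of 5105 UMIs (monocyte/macrophage-like), 4813 (T-like), 5787 (NK-like) and 11132 UMIs (MC38-like), so classes were also compared after each cell was thinned to 1000 UMIs, with at least 1 UMI of Mki67 or Top2a. By that thinned rule neutrophil-like cells gave 7 of 129 cells (5.43%), close to the lowest thinned shares of monocyte/macrophage-like cells. The thinned share averaged 51.3% ± 10.2 (SD, n = 8 tumors) in T-like, 50.3% ± 7.26 in MC38-like, 39.0% ± 7.35 in NK-like and 13.6% ± 7.33 in monocyte/macrophage-like cells. Within tumors, monocyte/macrophage-like cells had the lowest thinned share in 8 of 8 tumors against each of the other 3 classes, by 36.7, 37.7 and 25.3 percentage points below MC38-like, T-like and NK-like cells (exact sign-flip permutation test, two-sided, adjusted p = 0.012 for each of these, over 6 pairs of classes). MC38-like cells exceeded NK-like cells by 11.3 points in 8 of 8 tumors (exact permutation, adjusted p = 0.012). The order of the top classes was not settled: T-like exceeded NK-like cells by 12.3 points in 6 of 8 tumors (exact permutation, adjusted p = 0.066), and MC38-like cells were 1.00 point below T-like cells after thinning (exact permutation, adjusted p = 0.73) but 13.2 points above them on all UMIs (adjusted p = 0.0094). MC38-like cells were also the deeper class of that pair.

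**Figure D1:**
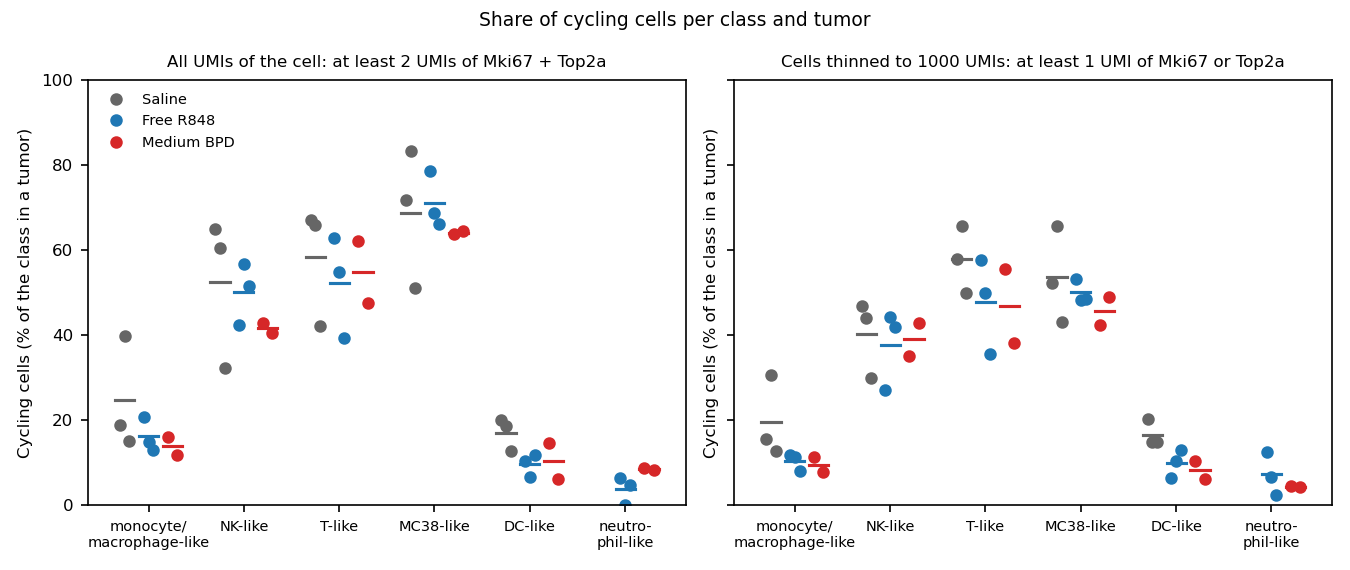
Share of cycling cells (percent of the cells of a class, y axis) in each tumor with at least 10 cells of the class, by class and treatment, on all UMIs and after thinning to 1000 UMIs per cell. Points are tumors and short lines are group means, and on all UMIs the monocyte/macrophage-like points lie at or below 20.7% except for saline replicate 2 at 39.9%.

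By treatment, the share of cycling monocyte/macrophage-like cells was 18.9, 39.9 and 15.02% after saline, 20.7, 14.8 and 12.98% after free R848, and 15.9 and 11.7% after medium BPDs. The saline values overlapped both treated groups on all UMIs, and after thinning the saline tumors (15.5, 30.7 and 12.7%) lay above every free R848 tumor (11.9, 11.3 and 8.09%) and every medium BPD tumor (11.2 and 7.72%). The thinned difference was -10.2 points for medium BPDs against saline (exact permutation p = 0.3) and -9.21 points for free R848 against saline (exact permutation p = 0.1), where p cannot go below 0.1 with these numbers of tumors. NK-like cells were cycling in 65.0, 60.4 and 32.3% after saline, 42.4, 56.7 and 51.6% after free R848, and 42.9 and 40.5% after medium BPDs. T-like cells were cycling in 67.1, 65.9 and 42.1% after saline, 62.9, 54.9 and 39.2% after free R848, and 62.1 and 47.6% after medium BPDs. In both lymphoid classes saline replicate 3, the shallowest library, was the lowest of its group, and on all UMIs and at 1000 UMIs each treated group overlapped the saline tumors. At 2000 UMIs per cell and at least 2 UMIs of the gate, T-like cells were cycling in 56.8, 58.9 and 48.4% after saline, 46.2, 45.6 and 33.3% after free R848, and 43.7 and 31.2% after medium BPDs. There the saline tumors lay above all treated ones (difference from saline -17.3 points for medium BPDs and -12.98 for free R848, exact permutation p = 0.1 for both), and T-like cells with a Cd8a or Cd8b1 UMI were in the same order (60.9 to 65.0% against 37.5 to 52.9%). Cells under 2000 UMIs were left out here, and saline replicate 3 kept 64 of its 95 T-like cells. The kept cells with a Cd8a or Cd8b1 UMI numbered 16 to 68 per tumor. MC38-like cells were cycling in 71.7, 83.3 and 51.0% after saline, 78.5, 68.7 and 66.2% after free R848, and 63.8 and 64.4% after medium BPDs. The 2 medium BPD tumors lay below the 3 free R848 tumors by 7.02 points on average on all UMIs (exact permutation p = 0.2), and overlapped them after thinning. None of the 12 comparisons of shares passed its test (exact permutation, two-sided, adjusted p from 0.98 to 1), and without saline replicate 2 the difference between medium BPDs and saline in monocyte/macrophage-like cells was -3.15 instead of -10.8 points, and that between free R848 and saline -0.783 instead of -8.42 points. In macrophage clusters alone, on all UMIs, the saline tumors (31.0, 41.5 and 23.8%) lay above both medium BPD tumors (16.6 and 10.75%) and overlapped the free R848 tumors (26.0, 17.1 and 15.4%), and neither difference passed the exact permutation test (p = 0.2 for medium BPDs and for free R848 against saline). At 1000 UMIs the saline tumors (24.9, 32.1 and 19.3%) of these clusters lay above all free R848 tumors (15.1, 12.8 and 10.3%) as well as both medium BPD tumors (11.9 and 7.24%), and at 2000 UMIs (18.4, 28.9 and 16.4%) they again lay above both groups (6.88 to 10.1% and 4.23 to 6.97%). Monocyte clusters, cycling in 4.51 to 20.4% of cells per tumor, held 380 of 741 and 316 of 639 cells of the class in saline replicates 1 and 3. The thinned differences of the class without saline replicate 2, an alternative chosen after seeing the data, were -4.65 and -3.68 points.

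The other 42 members followed the 2 genes of the gate. In monocyte/macrophage-like cells the mitotic members were at a median of 15.3 times the CPM (the UMIs of a gene in the summed cells, scaled to a fixed library total) in cycling as in other cells, from 4.86 times for Aurka to 30.9 times for the spindle motor Kif11. The S-phase members were at a median of 4.68 times, from 2.04 times for Pcna to 13.5 times for Tk1. A median of 86.3% of the UMIs of a mitotic member and 66.5% of those of an S-phase member lay in the cycling cells, which were 20.2% of the class. In the other classes, medians were taken over members with more than 3 UMIs in other cells. They were 22.2 (mitotic) and 4.44 times (S-phase) in NK-like, 22.5 and 3.87 times in T-like and 12.5 and 3.82 times in MC38-like cells. This rule kept 18 of 23 mitotic members in NK-like and 19 of 23 in T-like cells. The mitotic members left out had 98.7 to 100% of their UMIs in cycling cells, so these 2 medians would be higher with them. Every member was higher in the cycling cells in each tumor, apart from 1 mitotic gene in NK-like cells. The gate was drawn on the same cells, so these ratios are a description without a test.

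**Figure D2:**
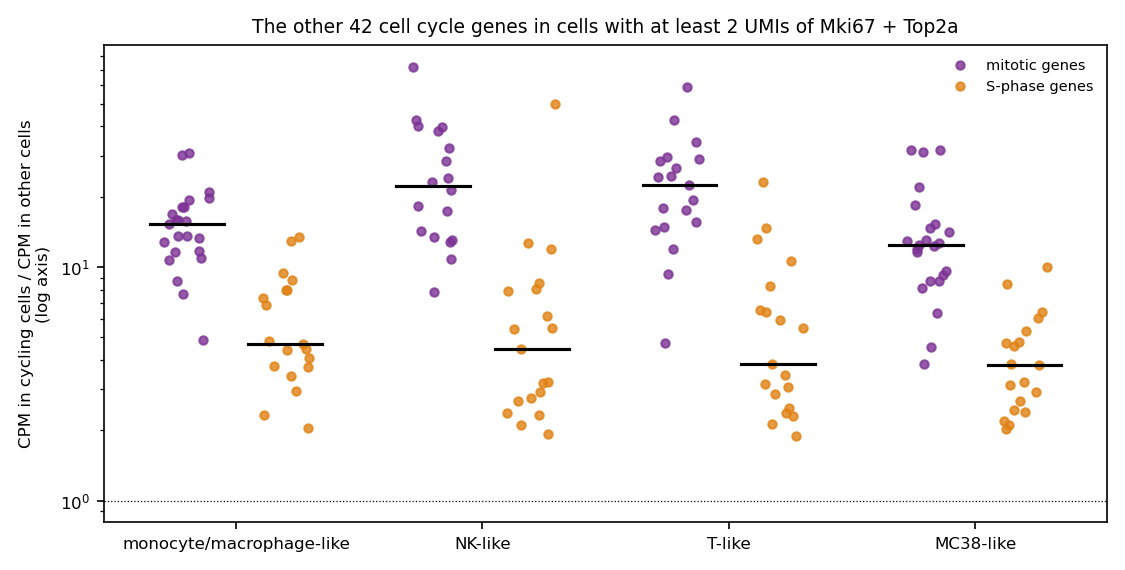
Ratio of the CPM in cycling cells to that in other cells (log axis), for the mitotic and S-phase members without Mki67 and Top2a, in 4 classes. There is 1 point per gene with more than 3 UMIs in the other cells, which leaves 18 of 23 mitotic members in NK-like and 19 of 23 in T-like cells. Black lines are medians of the plotted genes: the mitotic median lies between 12.5 and 22.5 in every class and the S-phase median between 3.82 and 4.68.

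Mki67 was at 261, 513 and 277 CPM after saline, 148, 191 and 109 CPM after free R848, and 194 and 69.4 CPM after medium BPDs in monocyte/macrophage-like cells. The saline tumors were all above the treated ones. In NK-like cells it was at 1013, 1513 and 695 CPM after saline, 729, 670.2 and 882 CPM after free R848, and 658 and 1069 CPM after medium BPDs. In T-like cells it was at 1289, 1374 and 1167 CPM after saline, 1428, 1137 and 827 CPM after free R848, and 1273 and 799 CPM after medium BPDs. MC38-like cells held it at 620.3, 753 and 656 CPM after saline, 691, 557 and 489 CPM after free R848, and 557 and 567 CPM after medium BPDs. In NK-like and T-like cells the groups overlapped, and in MC38-like cells both medium BPD tumors lay below the saline tumors. Top2a was at 188, 338 and 176 CPM after saline, 138, 124 and 95 CPM after free R848, and 147 and 78.1 CPM after medium BPDs in monocyte/macrophage-like cells, where the saline tumors were again all above the others. In NK-like cells it was at 913, 1107 and 599 CPM after saline, 722, 793 and 915 CPM after free R848, and 681 and 691 CPM after medium BPDs. In T-like cells it was at 1017, 1048 and 886 CPM after saline, 990.3, 1166 and 918 CPM after free R848, and 1149 and 668 CPM after medium BPDs. MC38-like cells held it at 855, 898 and 771 CPM after saline, 909.9, 811 and 630.1 CPM after free R848, and 643 and 868 CPM after medium BPDs. Saline and treated tumors overlapped for Top2a in the other 3 classes.

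Ccnb1, the cyclin that activates Cdk1 at the entry to mitosis, gave few UMIs. Its level was 11.7, 8.20 and 6.69 CPM after saline, 4.58, 7.75 and 3.59 CPM after free R848, and 6.59 and 1.58 CPM after medium BPDs in monocyte/macrophage-like cells. In NK-like cells it was at 25, 19.9 and 9.33 CPM after saline, 14.1, 18.4 and 16.8 CPM after free R848, and 20.7 and 0 CPM after medium BPDs, the last from a tumor with 42 such cells. The T-like levels were 36, 11.7 and 13.7 CPM after saline, 21.1, 14.4 and 29.4 CPM after free R848, and 18.1 and 14.5 CPM after medium BPDs, and the MC38-like levels were 38.5, 28.8 and 38.6 CPM after saline, 35.6, 47.1 and 29.6 CPM after free R848, and 32.1 and 30.2 CPM after medium BPDs. In NK-like, T-like and MC38-like cells each treated group overlapped the saline tumors. Mcm5, a helicase subunit, was at 76.8, 133 and 58.2 CPM after saline, 53.2, 62.5 and 44.3 CPM after free R848, and 48.3 and 34.7 CPM after medium BPDs in monocyte/macrophage-like cells. In NK-like cells it was at 312, 318 and 228 CPM after saline, 232, 357 and 236 CPM after free R848, and 204 and 194 CPM after medium BPDs, with both medium BPD tumors lowest. In T-like cells it was at 265, 265 and 196 CPM after saline, 354, 312 and 304 CPM after free R848, and 265 and 223 CPM after medium BPDs, with the free R848 tumors highest. MC38-like cells held it at 294, 324 and 337 CPM after saline, 379.5, 313 and 350.4 CPM after free R848, and 271 and 321 CPM after medium BPDs.

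Pcna was the S-phase member with the smallest ratio between cycling and other monocyte/macrophage-like cells. There it was at 103, 193 and 131 CPM after saline, 140.2, 116 and 122 CPM after free R848, and 113 and 109 CPM after medium BPDs over all cells of the class. Its NK-like levels were 252, 374 and 237 CPM after saline, 314, 291 and 223 CPM after free R848, and 265 and 332 CPM after medium BPDs. The T-like levels were 301, 309.9 and 237 CPM after saline, 376, 359 and 261 CPM after free R848, and 296 and 217 CPM after medium BPDs, and the MC38-like levels were 187, 257 and 219 CPM after saline, 215, 208 and 211 CPM after free R848, and 196 and 198 CPM after medium BPDs. In each class the saline tumors overlapped both treated groups for Pcna. E2f1 was at 55.7, 56.4 and 37 CPM after saline, 36.1, 46 and 38.7 CPM after free R848, and 40.3 and 41.4 CPM after medium BPDs in monocyte/macrophage-like cells. Its NK-like levels were 78.1, 77.9 and 50.6 CPM after saline, 76.4, 118 and 54.7 CPM after free R848, and 69 and 64.5 CPM after medium BPDs. The T-like levels were 87.5, 90.0 and 99.6 CPM after saline, 64.8, 78.4 and 58.8 CPM after free R848, and 71.5 and 63.7 CPM after medium BPDs, with saline highest. MC38-like cells held it at 159, 135 and 114 CPM after saline, 141, 152 and 165 CPM after free R848, and 118 and 157 CPM after medium BPDs. UMIs were counted at the 3′ end and levels are compared for 1 gene at a time.

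**Figure D3:**
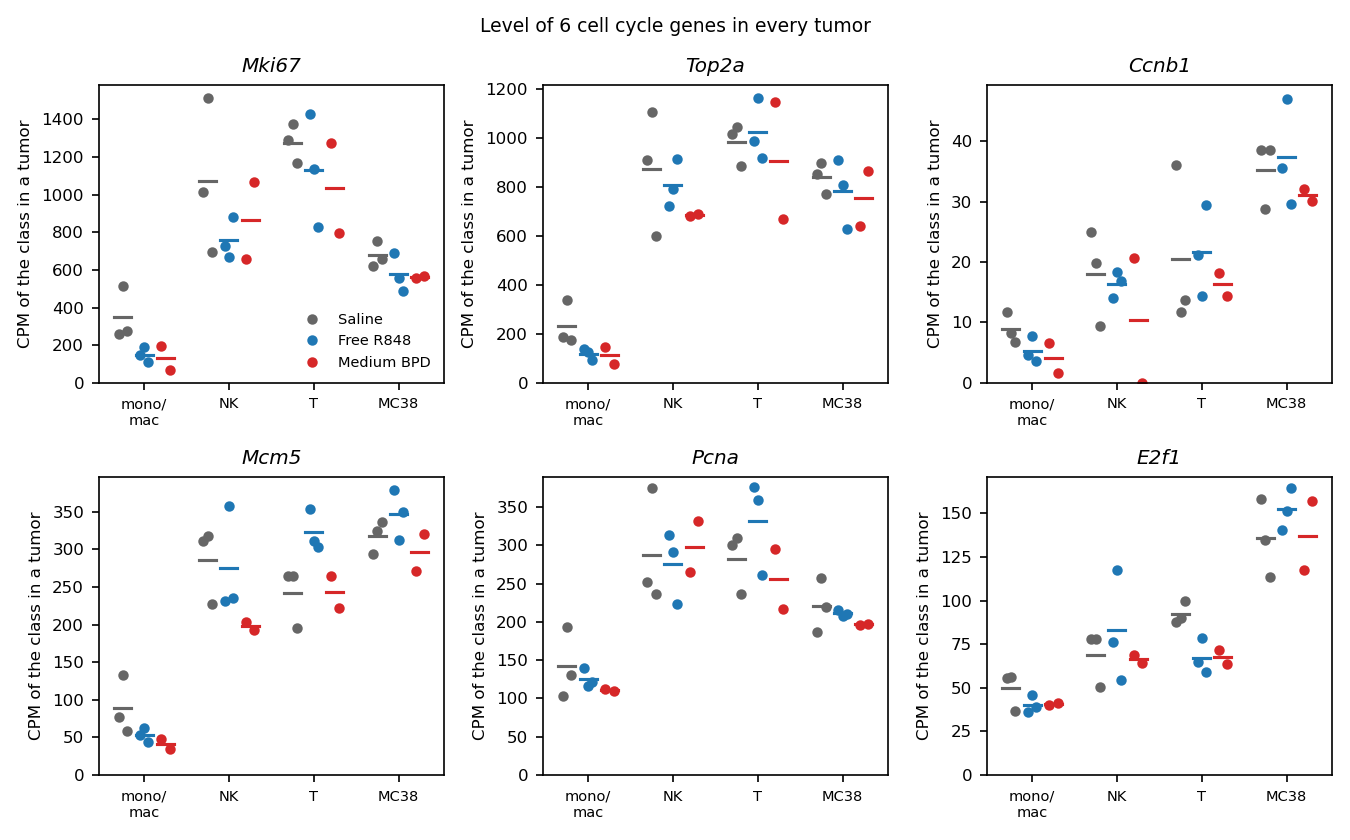
Level of 6 cell cycle genes (CPM of the summed UMIs of a class in a tumor, y axis) in 4 classes, 1 point per tumor and a line for each group mean. In monocyte/macrophage-like cells (mono/mac) the saline points of Mki67 and Top2a lie above all treated points, and those of Pcna and E2f1 do not.

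In monocyte/macrophage-like cells, medium BPD tumors had lower levels of all 44 members than saline tumors, and 8 of them fell by the test: Bub1b, Ckap2l, Tk1, Mcm7, Uhrf1, Mcm6, Mcm3 and Mcm2. The median fold change of the members corresponded to a log2 fold change of -1.05 for the mitotic and -1.04 for the S-phase genes, while the median over all 10552 genes tested was close to 0. The test was edgeR's quasi-likelihood test on UMIs summed per tumor, with Benjamini-Hochberg adjustment over all genes tested and a threshold of 0.05. Over all genes, 7.34% were called in this comparison, 3.69% as lower, and 8 of 44 members (18.2%) were called, 2 of 25 mitotic and 6 of 19 S-phase members. In 32 of the 44 members each medium BPD tumor was below each saline tumor, which held for 20.4% of all genes.

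Bub1b, a kinase of the spindle checkpoint (chr2:118598211-118641591, GRCm38, GENCODE), was at 34.5, 61 and 33.4 CPM after saline, 22.4, 24.8 and 11.6 CPM after free R848, and 15.3 and 7.89 CPM after medium BPDs. It was 3.58-fold lower after medium BPDs (log2 fold change -1.84 ± 0.41 SE, edgeR adjusted p = 0.031), with no overlap between these groups. Ckap2l, a spindle-associated protein (chr2:129268210-129297212), was at 57.4, 88.6 and 53.1 CPM after saline, 25.3, 29 and 19.6 CPM after free R848, and 29.7 and 7.89 CPM after medium BPDs. It was 3.31-fold lower (log2 fold change -1.73 ± 0.43 SE, edgeR adjusted p = 0.044), and both treated groups lay below every saline tumor. Of the 23 mitotic members that did not pass, Ccnb2, the second B-type cyclin, had the lowest value (log2 fold change -1.41 ± 0.44 SE, edgeR adjusted p = 0.09) and Aurka the value nearest to 0 (log2 fold change -0.45 ± 0.35 SE, edgeR adjusted p = 0.46). Mki67 (log2 fold change -1.40 ± 0.46 SE, edgeR adjusted p = 0.1) and Top2a (log2 fold change -1.04 ± 0.35 SE, edgeR adjusted p = 0.11) did not pass either, although the medium BPD and saline tumors did not overlap.

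Among the S-phase genes, 4 of the 6 subunits of the Mcm helicase fell. Mcm7 (chr5:138164583-138172422) was at 37, 71.6 and 33.4 CPM after saline, 21.7, 24.8 and 28.7 CPM after free R848, and 16.7 and 14.2 CPM after medium BPDs. It was 3.08-fold lower after medium BPDs (log2 fold change -1.62 ± 0.34 SE, edgeR adjusted p = 0.026). Mcm6 (chr1:128331590-128359664), whose promoter is printed above, was at 109, 156 and 94 CPM after saline, 79, 88.2 and 63.1 CPM after free R848, and 54.5 and 58.4 CPM after medium BPDs. It was 2.13-fold lower (log2 fold change -1.09 ± 0.23 SE, edgeR adjusted p = 0.026), and the 2 medium BPD tumors were below all 6 others. Mcm3 (chr1:20802968-20820312) was at 126, 179 and 92.1 CPM after saline, 80.0, 89.8 and 79 CPM after free R848, and 65 and 63.9 CPM after medium BPDs (log2 fold change -1.04 ± 0.24 SE, edgeR adjusted p = 0.035). Mcm2 (chr6:88883474-88898780) was at 82.4, 121 and 63.7 CPM after saline, 52.3, 62.5 and 49.1 CPM after free R848, and 41.7 and 46.1 CPM after medium BPDs (log2 fold change -1.04 ± 0.25 SE, edgeR adjusted p = 0.039). The remaining subunits Mcm4 (log2 fold change -1.06 ± 0.32 SE, edgeR adjusted p = 0.084) and Mcm5 (log2 fold change -1.10 ± 0.33 SE, edgeR adjusted p = 0.079) had values of similar size and did not pass.

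Tk1, thymidine kinase of the nucleotide salvage pathway (chr11:117815526-117826092), was at 20.7, 38.1 and 21.3 CPM after saline, 17.1, 17.8 and 19.2 CPM after free R848, and 12.1 and 3.94 CPM after medium BPDs. It was 3.11-fold lower after medium BPDs (log2 fold change -1.64 ± 0.41 SE, edgeR adjusted p = 0.046), and replicate 2 of that group, at 3.94 CPM, held few UMIs. Uhrf1, which recruits the maintenance DNA methyltransferase to newly copied DNA (chr17:56303321-56323486), was at 51.1, 95.6 and 47.2 CPM after saline, 37.3, 39.9 and 27.5 CPM after free R848, and 25.8 and 20.5 CPM after medium BPDs. It was 2.79-fold lower (log2 fold change -1.48 ± 0.32 SE, edgeR adjusted p = 0.03). The smallest differences were those of E2f1 (log2 fold change -0.30 ± 0.20 SE, edgeR adjusted p = 0.38) and Pcna (log2 fold change -0.36 ± 0.23 SE, edgeR adjusted p = 0.38), where the groups overlapped. The calls depended on which tumors were in the fit. Without medium BPD replicate 2 no member was called, beside 0.781% of all genes, although the log2 fold changes of the 8 were still -1.52 to -1.03. Without free R848 replicate 1, 2 or 3 there were 2, 3 and 4 calls (4.7, 4.76 and 4.35% of all genes), without saline replicate 1 there were 2 (2.64%), and without saline replicate 3 there were 13 (7.15%). Without medium BPD replicate 1 there were 15, beside 3.93%, among them Ckap2l (log2 fold change -3.08) and Tk1 (-2.77) but not the other 6 of the 8. Without saline replicate 2 all 8 were called and no others, beside 11.9% of all genes, with Mcm7 at -1.17, Mcm2 at -0.75 and the median of the 44 members at -0.74 in place of -1.05. Of 8 fits with 1 tumor left out, Mcm2 and Mcm3 lost their call in 6, Ckap2l and Tk1 in 5, Bub1b and Uhrf1 in 4, Mcm6 in 3 and Mcm7 in 2. Fitting the 2 groups alone gave 0 calls (1.44% of all genes), DESeq2 gave 23 (8.94%), and no filter on low counts gave 38 (8.72%). With macrophage clusters alone, 30 of 44 members were called, all lower, beside 12.3% of all genes.

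**Figure D4:**
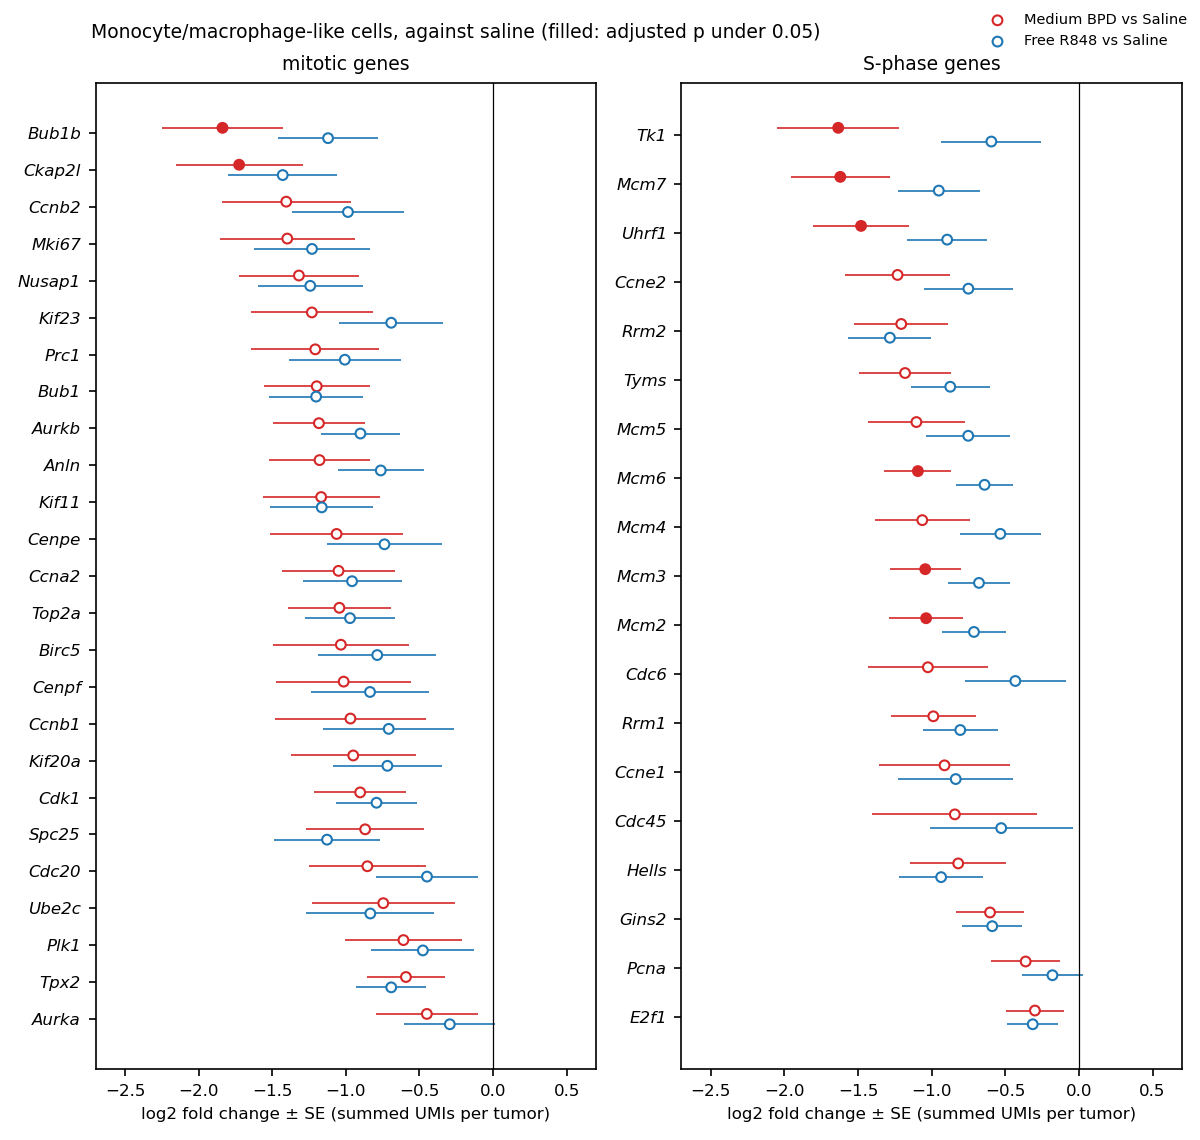
Log2 fold change against saline in monocyte/macrophage-like cells for each of the 25 mitotic and 19 S-phase members (points, with SE as bars), for medium BPDs and free R848. Every point is below 0, and the 8 filled points, all for medium BPDs, passed the test.

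The 2 medium BPD tumors differed in the balance of mitotic and S-phase members. In replicate 2 the mitotic members summed to 369 CPM and the S-phase members to 548 CPM, while in replicate 1 they summed to 977 and 656 CPM. The saline tumors held 1262, 2223 and 1126 CPM of mitotic and 1003, 1712 and 836 CPM of S-phase members, and the free R848 tumors 872, 913 and 580 CPM and 778, 833 and 674 CPM. The S-phase to mitotic ratio was 1.49 in medium BPD replicate 2 and 0.672 in replicate 1, the highest and the lowest of the 8 tumors.

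The class was made of different clusters in the different groups. Its 11 clusters held from 4.26 to 50.4% of cycling cells, and these shares are a description. The 2 clusters with the highest share, n0 (50.4%, led by C1qc, C1qa and C1qb) and n6 (36.7%, led by Fcrls and C1qa), made up 25.2, 54.7 and 30.05% of the class in the saline tumors, 20.3, 23.7 and 11.3% after free R848, and 2.01 and 0.396% after medium BPDs. In saline replicate 2 alone, n0 was 50.9% of the class, and 65.7% of the cells of n0 came from that tumor. Clusters n5 (with Mmp12 and Ccl8 among its leading genes, 9.79% cycling) and n15 (with Saa3 and Cd38 among them, 4.35% cycling) made up 54.7 and 65.4% of the class after medium BPDs, and 1.22 to 4.68% in the other tumors. Cluster n16, also held mostly by these tumors, was cycling in 24.9% of its 213 cells, 67.1% of them from medium BPD replicate 1, where it was 20.5% of the class and cycling in 30.1%. Neither n5 nor n15 has a macrophage marker among its 10 leading genes, and they were named from 8 and 5 detected markers, n15 with a macrophage score near 0. Cluster n1 was present in every tumor, and its cells were cycling in 27.5, 33.7 and 26.5% after saline, 23.3, 12.3 and 15.6% after free R848, and 23.5 and 19.2% after medium BPDs, on 34 to 163 cells per tumor. On all UMIs every saline tumor was above every treated one, and at 1000 UMIs saline replicate 3 and medium BPD replicate 1 were equal. Fewer cells of a dividing state and less RNA per cell cannot be told apart in the summed counts, and the part of cluster make-up in the 8 calls was not tested.

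**Figure D5:**
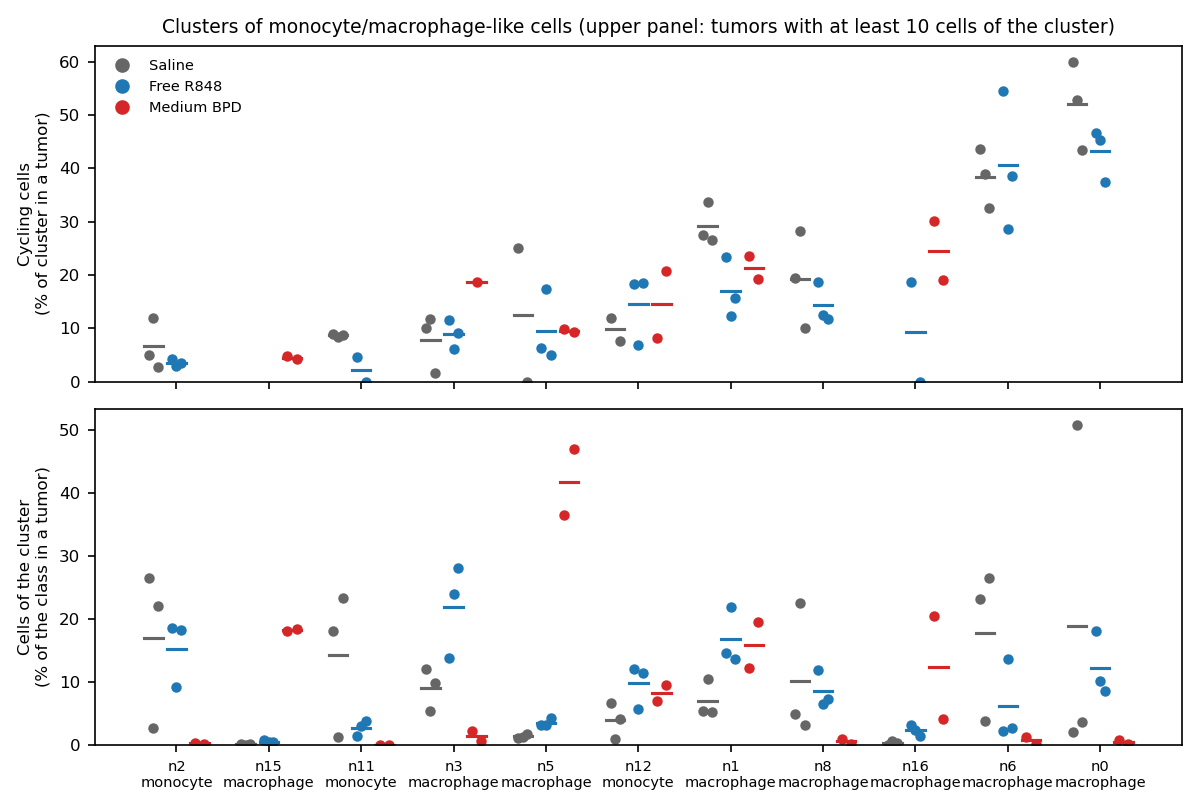
Clusters of monocyte/macrophage-like cells, ordered by their share of cycling cells: the share in each tumor with at least 10 cells of the cluster (upper panel, percent), and the cluster's part of the class in each tumor (lower panel, percent). Points are tumors and lines group means. The medium BPD points are near 0 in the lower panel for n0 and n6 and highest for n5 and n15.

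Free R848 against saline pointed the same way in these cells, without a call among the members in edgeR with the filter on low counts. All 44 members were lower (median log2 fold change -0.84 for mitotic and -0.71 for S-phase members), 31 of them with each free R848 tumor below each saline tumor, which held for 8.43% of all genes. No member passed, beside 0.019% of all genes, and 27 had an unadjusted p under 0.05. DESeq2 called 2 members, beside 0.36% of all genes, and edgeR with no filter on low counts called 34 of 44, beside 2.65%. Without saline replicate 2 the median of the 44 members was -0.47 in place of -0.79, with no call. The smallest p were those of Rrm2, a subunit of ribonucleotide reductase (log2 fold change -1.28 ± 0.28 SE, edgeR adjusted p = 0.26), Ckap2l (log2 fold change -1.43 ± 0.37 SE, edgeR adjusted p = 0.28) and Bub1, a checkpoint kinase (log2 fold change -1.20 ± 0.32 SE, edgeR adjusted p = 0.28). Rrm2 was at 30.4, 51.2 and 30.3 CPM after saline, 15.9, 18.7 and 11.2 CPM after free R848, and 19.6 and 12.2 CPM after medium BPDs, so the saline tumors lay above all treated ones. Bub1 was at 31.6, 41.4 and 28.3 CPM after saline, 14.7, 18.9 and 9.98 CPM after free R848, and 19.95 and 8.28 CPM after medium BPDs, with the same separation. This comparison and the previous one share the saline tumors, so their directions are not independent.

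Medium BPDs against free R848 gave no call among the members in DESeq2 or in edgeR with the filter on low counts. That edgeR fit called 1.57% of all genes, and 1 member had an unadjusted p under 0.05. The values were lower in 37 and higher in 7 members, with medians of -0.18 for the mitotic and -0.32 for the S-phase genes. The direction rested on medium BPD replicate 2: the median of the 44 members, -0.24, was 0.13 without it and -0.95 without replicate 1. Both medium BPD tumors lay below all free R848 tumors in 10 of 44 members, all of them S-phase genes, beside 19.0% of all genes. The smallest p belonged to Tk1 (log2 fold change -1.04 ± 0.42 SE, edgeR adjusted p = 0.3), Mcm6 (log2 fold change -0.45 ± 0.23 SE, edgeR adjusted p = 0.41) and Mcm7 (log2 fold change -0.67 ± 0.34 SE, edgeR adjusted p = 0.42).

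Other genes of the pathway were also mostly lower in monocyte/macrophage-like cells of medium BPD against saline tumors. These counts stand beside the 7.34% of all genes called, 3.69% as lower. Of 50 further S-phase genes, 49 were lower and 8 fell by the test, among them Dtl (log2 fold change -2.10 ± 0.50 SE, edgeR adjusted p = 0.038), an adaptor that marks replication factors for destruction. Of 72 further mitotic genes tested, 68 were lower and 5 fell by the test. Of 25 genes of G1 and cell cycle inhibition, 17 were lower and 5 fell, among them the transcription factor E2f2 (-1.98 ± 0.32 SE, edgeR adjusted p = 0.011). E2f7 and Ticrr were also among the called genes of these 3 lists with the largest change in this comparison, at -1.67 and -1.65. None of these 3 lists held a gene that rose by the test, although 1, 4 and 8 of their genes were higher. The same lists in the comparison of free R848 with saline gave 0 calls in edgeR with 26, 42 and 7 unadjusted p under 0.05.

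The G1 cyclin Ccnd1, which responds to growth factors, separated medium BPDs from both other groups in monocyte/macrophage-like cells. It was at 556, 682 and 365 CPM after saline, 536, 642 and 548 CPM after free R848, and 197 and 201 CPM after medium BPDs. It fell against saline (log2 fold change -1.43 ± 0.25 SE, edgeR adjusted p = 0.013) and against free R848 (log2 fold change -1.53 ± 0.25 SE, edgeR adjusted p = 0.024), where it was the 1 gene of the 3 lists that was called. Ccnd2 was at 255, 324 and 157 CPM after saline, 205, 297 and 223 CPM after free R848, and 122 and 152 CPM after medium BPDs, lower in both medium BPD tumors without a call (log2 fold change -0.85 ± 0.29 SE, edgeR adjusted p = 0.11). Myc, a driver of growth, was at 32.6, 33.4 and 40.9 CPM after saline, 26, 28 and 29.9 CPM after free R848, and 18.7 and 17.4 CPM after medium BPDs and fell against saline (log2 fold change -0.97 ± 0.16 SE, edgeR adjusted p = 0.012). The inhibitor Cdkn1a was at 1987, 979.6 and 1748 CPM after saline, 1305, 1690 and 1847 CPM after free R848, and 1194 and 1550 CPM after medium BPDs, with overlapping groups. Within this class Cdkn1a was lower in cycling than in other cells in 8 of 8 tumors, at 0.707 times the CPM, and Ccnd1 was at 1.42 times.

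No member passed in NK-like cells, in edgeR with the filter on low counts or in DESeq2. Against saline, 41 members were lower and 3 higher after medium BPDs (median log2 fold change -0.36), 13 had an unadjusted p under 0.05, and 1.09% of all genes were called. The smallest p were those of Cenpf, a kinetochore protein (log2 fold change -0.83 ± 0.24 SE, edgeR adjusted p = 0.13), Mcm4 (log2 fold change -0.67 ± 0.20 SE, edgeR adjusted p = 0.16) and Mcm2 (log2 fold change -0.66 ± 0.21 SE, edgeR adjusted p = 0.18). Cenpf was at 229, 196 and 123 CPM after saline, 176, 156 and 191 CPM after free R848, and 116 and 69.1 CPM after medium BPDs. Both medium BPD tumors were lowest, replicate 1 close to saline replicate 3. Mcm4 was at 295, 280 and 187 CPM after saline, 228, 255 and 219 CPM after free R848, and 158 and 166 CPM after medium BPDs, and here the 2 medium BPD tumors were below the 6 others. Without saline replicate 3, 4 members were called, beside 1.34% of all genes.

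Against free R848 the median in NK-like cells was -0.24, with 6 unadjusted p under 0.05 and 0.468% of all genes called. The smallest p belonged to Cenpf (log2 fold change -0.75 ± 0.25 SE, edgeR adjusted p = 0.27), Mcm6 (log2 fold change -0.50 ± 0.18 SE, edgeR adjusted p = 0.32) and Mcm4 (log2 fold change -0.55 ± 0.20 SE, edgeR adjusted p = 0.36). Free R848 against saline gave a median of -0.14, 4 unadjusted p under 0.05 and 0.0% of all genes called, with Kif11 (log2 fold change -0.52 ± 0.19 SE, edgeR adjusted p = 1), Rrm2 (log2 fold change -0.46 ± 0.20 SE, edgeR adjusted p = 1) and Mki67 (log2 fold change -0.50 ± 0.21 SE, edgeR adjusted p = 1) at the smallest p. In the other lists Cdkn1a, the p53 target that inhibits cyclin-dependent kinases, was at 187, 299.9 and 136 CPM after saline, 168, 199 and 175 CPM after free R848, and 338 and 424 CPM after medium BPDs. It rose 2.05-fold in medium BPD against free R848 tumors (log2 fold change 1.04 ± 0.23 SE, edgeR adjusted p = 0.049). Against saline it did not pass (log2 fold change 0.86 ± 0.23 SE, edgeR adjusted p = 0.09). Ccng1, another p53 target, rose against saline (0.78 ± 0.19 SE, edgeR adjusted p = 0.044). Ccnd1 (11.99 to 37.5 CPM), Ccnd2 (406 to 599 CPM) and Myc (9.33 to 36.9 CPM) had overlapping groups in NK-like cells.

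No member passed in T-like cells either, in edgeR with the filter on low counts or in DESeq2. That edgeR fit called 0.174% of all genes for medium BPDs against saline, 0.0402% against free R848 and 0.0% for free R848 against saline. The counts of unadjusted p under 0.05 were 5, 2 and 2. Anln, a scaffold of the cleavage furrow, had the smallest p against saline (log2 fold change -2.00 ± 0.45 SE, edgeR adjusted p = 0.14) and against free R848 (log2 fold change -1.62 ± 0.45 SE, edgeR adjusted p = 0.32). It was at 41.2, 49.98 and 44.6 CPM after saline, 50.7, 20.6 and 29.4 CPM after free R848, and 12.4 and 8.68 CPM after medium BPDs, so both medium BPD tumors lay below the 6 others, on few UMIs. Cenpf followed against saline (log2 fold change -0.76 ± 0.30 SE, edgeR adjusted p = 0.62), at 255, 209.9 and 179 CPM after saline, 239.5, 231 and 239 CPM after free R848, and 169.7 and 69.4 CPM after medium BPDs. Cdk1 came next (log2 fold change -0.90 ± 0.36 SE, edgeR adjusted p = 0.62), at 95.2, 128 and 106 CPM after saline, 106, 92.9 and 94.7 CPM after free R848, and 82 and 23.1 CPM after medium BPDs. Against saline, 9 S-phase members were higher and 10 lower, with a median of -0.06 beside -0.30 for the mitotic members, a difference that was not tested. The median of all 44 members, -0.19, was 0.04 without medium BPD replicate 2 and -0.71 without replicate 1.

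For free R848 against saline in T-like cells, 23 members were higher and 21 lower. The smallest p were those of Mcm7 (log2 fold change 0.59 ± 0.19 SE, edgeR adjusted p = 0.65), Mcm5 (log2 fold change 0.41 ± 0.17 SE, edgeR adjusted p = 0.75) and E2f1 (log2 fold change -0.44 ± 0.20 SE, edgeR adjusted p = 0.76). Mcm7 was at 149, 129.9 and 106 CPM after saline, 209.9, 211 and 157 CPM after free R848, and 153 and 139 CPM after medium BPDs, with every free R848 tumor above every saline tumor. E2f1 was lower after free R848 in all 3 tumors. Against free R848, Cenpf (log2 fold change -0.90 ± 0.30 SE, edgeR adjusted p = 0.45) and Mcm5 (log2 fold change -0.40 ± 0.19 SE, edgeR adjusted p = 0.67) came after Anln for medium BPDs. Ccnd1 (38.1 to 282 CPM), Cdkn1a (404 to 741 CPM) and Myc (16.9 to 66.5 CPM) overlapped between groups. Ccnd2 was at 528, 521 and 683 CPM after saline, 435, 755 and 764 CPM after free R848, and 803 and 775 CPM after medium BPDs, highest in the medium BPD tumors without a call. T-like cells with a Cd8a or Cd8b1 UMI were cycling in 200 of 304 cells (65.8%), from 53.3 to 75.0% per tumor.

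In MC38-like cells Tk1 was the 1 member that passed in edgeR with the filter on low counts, and it fell in medium BPD tumors against both other groups. It was at 71.2, 80.7 and 71 CPM after saline, 93.1, 68.7 and 77.2 CPM after free R848, and 47.6 and 37 CPM after medium BPDs. The 2 medium BPD tumors were below the 6 others, by 1.80-fold against saline (log2 fold change -0.85 ± 0.17 SE, edgeR adjusted p = 0.04) and 1.92-fold against free R848 (log2 fold change -0.94 ± 0.17 SE, edgeR adjusted p = 0.044). In these comparisons 1.2% and 0.342% of all genes were called, 0.815% and 0.12% as lower. The fold changes kept their direction with any 1 tumor left out (-1.02 to -0.66 against saline, -1.12 to -0.76 against free R848), and each call was lost in 6 of 8 such fits: against saline the call held only without medium BPD replicate 1 or free R848 replicate 1, against free R848 only without medium BPD replicate 1 or saline replicate 2. Both were also lost when only the 2 groups compared were fitted, and when the replicate number was a block in the fit. The mitotic members had a median of -0.30 against saline and -0.24 against free R848, 24 and 22 of 25 lower. They had no call in edgeR with the filter on low counts, and 6 and 8 unadjusted p under 0.05.

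Free R848 against saline gave no call among the members of MC38-like cells in DESeq2 or in edgeR with the filter on low counts. That edgeR fit gave 1 unadjusted p under 0.05 and 0.0% of all genes called. The smallest p were those of Bub1 (log2 fold change -0.54 ± 0.18 SE, edgeR adjusted p = 0.5), Bub1b (log2 fold change -0.28 ± 0.14 SE, edgeR adjusted p = 0.6) and Mcm4 (log2 fold change -0.25 ± 0.13 SE, edgeR adjusted p = 0.62). In the other lists Cdca3, a trigger of mitotic entry, fell against saline (log2 fold change -0.85 ± 0.12 SE, edgeR adjusted p = 0.0084) and against free R848 (-0.69 ± 0.12 SE, edgeR adjusted p = 0.040). Against saline, Ccng2 (-1.46), Cdkn2d (-1.01) and Cdkn2c (-0.94) fell and the stress gene Gadd45a rose (1.55 ± 0.28 SE, edgeR adjusted p = 0.024). Myc was at 224, 324 and 274 CPM after saline, 288, 296 and 372 CPM after free R848, and 405 and 355 CPM after medium BPDs, with both medium BPD tumors above the saline tumors and no call. Ccnd1 (495 to 749 CPM), Ccnd2 (262 to 396 CPM) and Cdkn1a (131 to 297 CPM) did not pass in any comparison.

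Whether a treatment effect differed between classes was tested as a class-by-treatment term with the tumor as a block. For medium BPDs against saline, Mcm7 differed between monocyte/macrophage-like cells and each other class, by 1.19 ± 0.30 SE log2 units in NK-like (edgeR adjusted p = 0.046), 1.76 ± 0.34 in T-like (adjusted p = 0.036) and 1.40 ± 0.30 in MC38-like cells (adjusted p = 0.031). Its levels were 184, 197 and 128 CPM after saline, 153, 183 and 141 CPM after free R848, and 123 and 166 CPM after medium BPDs in NK-like cells. MC38-like cells held Mcm7 at 184, 214 and 200.3 CPM after saline, 201, 172 and 205 CPM after free R848, and 164 and 202 CPM after medium BPDs, with overlapping groups. Bub1b (1.61 ± 0.35 SE, edgeR adjusted p = 0.035) and Ckap2l (1.65 ± 0.35 SE, adjusted p = 0.031) differed between MC38-like and monocyte/macrophage-like cells. Bub1b was at 98.3, 88.8 and 81.4 CPM after saline, 71.7, 77.7 and 73.9 CPM after free R848, and 86.6 and 64.2 CPM after medium BPDs in MC38-like cells, and Ckap2l at 73.3, 77.7 and 58.4 CPM after saline, 85.9, 66.3 and 39.9 CPM after free R848, and 71.2 and 50.1 CPM after medium BPDs. The other 5 members that fell in monocyte/macrophage-like cells were not shown to differ from the other classes. These calls depended on single tumors: of 8 fits with 1 tumor left out, 5 gave no call for NK-like cells and 5 none for T-like cells, and for MC38-like cells there was none without medium BPD replicate 2 and 18 without replicate 1, beside 0.327 and 3.08% of all genes. Over all genes this term was called in 1.67%, 0.452% and 2.6% for NK-like, T-like and MC38-like cells. For medium BPDs against free R848 no member differed with the filter on low counts (2, 3 and 1 unadjusted p under 0.05, and 0.737%, 0.129% and 0.567% of all genes called). With that filter none did for free R848 against saline (24, 31 and 31 unadjusted p under 0.05, and 0.0% of all genes in each).

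Cycling and other cells were then tested apart, with Mki67 and Top2a left out. Within cycling monocyte/macrophage-like cells, Mcm6, Mcm7 and Uhrf1 fell in medium BPD against saline tumors, 3 of 42 members beside 2.02% of all genes. Mcm7 there was at 95.6, 117 and 98.6 CPM after saline, 50, 70.6 and 72.8 CPM after free R848, and 41.0 and 42.3 CPM after medium BPDs (log2 fold change -1.28 ± 0.23 SE, edgeR adjusted p = 0.021). Uhrf1 in the cycling cells was at 143, 177 and 159 CPM after saline, 110, 135 and 102 CPM after free R848, and 79.8 and 64.6 CPM after medium BPDs (-1.07 ± 0.19 SE, edgeR adjusted p = 0.021). Mcm6 changed by -0.97 ± 0.19 SE (edgeR adjusted p = 0.028). For these 3 genes the medium BPD tumors were below all others among the gated cells, on 19 to 176 UMIs per medium BPD tumor and gene. The gate itself reads cell cycle genes, and its background of 6.15% is a larger part of the medium BPD share of cycling cells (13.8% on average) than of the saline share (24.6%). With at least 3 UMIs 1 member was called instead of 3 (1.18% of all genes), without medium BPD replicate 2 none (0.436%) and without replicate 1 there were 8 (1.96%), and the part of background cells in these calls was not tested. Among the other monocyte/macrophage-like cells, Bub1b and Ccnb2 fell, 2 of 39 members, a share below the 6.77% of all genes, on 7 to 19 UMIs per medium BPD tumor, and neither was called without either medium BPD tumor or without saline replicate 3.

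In NK-like cells that were not cycling, 3 helicase genes fell after medium BPDs. Mcm6 was at 263, 273 and 184 CPM after saline, 229, 286 and 266 CPM after free R848, and 136 and 76.3 CPM after medium BPDs, the last from 9 UMIs. Mcm2, Mcm4 and Mcm6 fell against saline (3 of 13 members beside 1.37% of all genes), and Mcm6 fell against free R848 (1 of 13 beside 0.679%). Against saline the 3 calls went to 0 without medium BPD replicate 1 or saline replicate 2 and to 1 without medium BPD replicate 2 or saline replicate 1, and against free R848 the call was lost without either medium BPD tumor or without free R848 replicate 2 or 3. In cycling MC38-like cells Tk1 fell against free R848, 1 of 42 members beside 0.532% of all genes, and no member was called in 6 of 8 fits with 1 tumor left out. The other 19 of the 24 comparisons gave no member in edgeR, with 0 to 14 unadjusted p under 0.05 and 0.0 to 2.27% of all genes called.

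The macrophage-like cells with UMIs of both Cd38 and Saa3 came almost wholly from the medium BPD tumors, 343 and 264 of 620 cells, and 14.6 and 10.6% of them were cycling. The other cells of macrophage clusters in the same tumors were cycling in 18.8 and 10.9%, at medians of 5656 and 4236 UMIs against 6713 and 4583 in the former, those of the free R848 tumors, which overlapped them, in 25.97, 17.1 and 15.1%, and those of the saline tumors in 31.0, 41.6 and 23.8%. At 1000 UMIs the values in the medium BPD tumors were 8.75 and 6.82% with Cd38 and Saa3, and 15.5 and 7.81% without both. Over all tumors, macrophage clusters held 955 cycling cells of 3937 (24.3%) and monocyte clusters 99 of 1292 (7.66%), which lies inside the interval of the neutrophil-like cells. Dendritic cell-like cells, which are not among the 4 classes tested, were cycling in 93 of 692 cells (13.4%).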

How the data were processed

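Single-cell libraries of 8 MC38 tumors were used. The authors deposited 1 table per tumor of UMI counts, genes by barcodes, not normalized. The submitters' processing notes name the build mm10 and the tool bcl2fastq; the aligner and gene annotation are not given in the sources used here. Sample groups were read from the titles.

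Kept cells had over 400 but under 10000 genes, under 50000 UMIs and a mitochondrial share of 15% or less. Doublets were scored with Scrublet (scanpy 1.11.5, expected rate 0.05) and kept. Cells were clustered in Seurat 5.3.0 under R 4.3.3 (30 principal components, resolution 0.8), and nonmalignant cells again (11 components, resolution 1.3), leaving out all listed cell cycle genes. A cluster was named for the highest-scoring marker list among those with at least 3 markers detected, in 10% of cells or more. That naming rule and the method for variable genes behind the removal of 219 poor-quality cells were set after output had been seen. Monocyte and macrophage clusters were joined.

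Raw UMI counts were summed per tumor and class, and tested over tumors with edgeR 4.0.16 (TMM, filterByExpr, quasi-likelihood test, adjusted p under 0.05) in 1 fit over the 3 treatments; DESeq2 1.42.0 was an alternative. Tumors, not cells, were the replicates. Levels are CPM, computed here. Shares of cells were compared by exact permutation over tumors. The edgeR step was tested on simulated data. Alternatives covered the tool, scaling, filter, samples in the fit, replicate block, single tumors, doublets, cell numbers, gate, depth and clustering. The members, lists, markers and tests were chosen with earlier results of these data known. Any member could be named, members called first and, where none was called, the 3 with the smallest p; Mki67, Top2a, Pcna, Ccnb1, Mcm5 and E2f1 were always given, of other lists at most 5 called genes per comparison, and Ccnd1, Ccnd2, Cdkn1a and Myc in every class. The genes named in passing by their lowest or highest value (Ccnb2, Aurka, Kif11, Mcm4) were chosen after the values were seen. Same-numbered tumors were checked for pairing by the correlation of their deviations from the group means. Promoter windows are from RefSeq (GRCm38.p6) and gene positions from GENCODE vM21.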

Additional observations from a re-analysis of the deposited data

Results flagged for a closer look

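In 5 cases the effect of medium BPDs against saline differed between monocyte/macrophage-like cells and another class in a test of the difference itself (edgeR, class-by-treatment term with the tumor as a block, adjusted over all genes). The difference for Mcm7, a subunit of the replicative helicase, was 1.19 on the log2 scale for NK-like, 1.76 for T-like and 1.40 for MC38-like cells, each relative to monocyte/macrophage-like cells, where Mcm7 fell. For Bub1b, a checkpoint kinase, it was 1.61, and for Ckap2l, a spindle protein, 1.65, both for MC38-like cells. Only the T-like Mcm7 change against saline was above 0, at 0.18 with no call of its own. The calls depended on single tumors: the count for MC38-like cells went from 3 to 0 without medium BPD replicate 2 and to 18 without replicate 1.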

How the results depend on the processing

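Counts of members called are given as numbers of the 44 unless stated, with the percent of all genes called in the same fit in parentheses. Some ranges over fits with 1 tumor left out are given without that percent, so they cannot be set against all genes. In monocyte/macrophage-like cells of medium BPD against saline tumors (8 called) there were 23 with DESeq2 (8.94%), 38 with no filter on low counts (8.72%), 0 with the 2 groups fitted alone (1.44%), 5 with the replicate block (3.82%), 5 with equal cell numbers (6.49%), 30 with macrophage clusters only (12.3%), and 0 to 15 when 1 tumor was left out (0.781 to 11.9%). Free R848 against saline there gave 2 with DESeq2 (0.36%) and 34 with no filter (2.65%), and medium BPDs against free R848 gave 1 with no filter (4.54%) and 0 to 1 without single tumors. With no filter, NK-like cells gave 1 and 3 for medium BPDs against free R848 and saline (0.965 and 1.35%), T-like cells 2 and 1 (1.21 and 1.43%), and MC38-like cells 2 and 5 (3.0 and 4.01%), with 1 for free R848 against saline (0.864%). Leaving out 1 saline or free R848 tumor gave 0 to 4 in NK-like cells against saline (0.654 to 1.34%). For medium BPDs against free R848 and saline it gave 0 in T-like cells (0.0132 to 0.21% and 0.0395 to 0.223%). In MC38-like cells it gave 0 to 1 in both (0.0468 to 0.712% and 0.449 to 1.31%). There the 1 call against saline without saline replicate 2 was a rise. In MC38-like cells both calls of Tk1 went to 0 with 2 groups and with the replicate block, and DESeq2 called 2 against saline (2.46%). The replicate block changed no other call. The class-by-treatment counts for medium BPDs against saline (1, 1 and 3 for NK-like, T-like and MC38-like cells) were 4, 7 and 24 with no filter (1.8, 1.15 and 4.44%), and 0 to 2, 0 to 2 and 0 to 18 without single tumors; for free R848 against saline they were 2, 16 and 20 with no filter (0.319, 0.906 and 0.871%). With at least 3 UMIs for the gate, cycling and other monocyte/macrophage-like cells gave 1 and 4 (1.18 and 7.22%), and other NK-like cells 2 and 5 against free R848 and saline (0.824 and 1.19%). Without single tumors these ranged from 0 to 8, 0 to 2, 0 to 2 and 0 to 5, and cycling MC38-like cells from 0 to 1 against free R848 and 0 to 2 against saline.

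Differences in the share of cycling cells changed sign for NK-like medium BPD against free R848 (1.27 and 1.47 points thinned to 1000 and 2000 UMIs), NK-like free R848 against saline (2.33 at 1 UMI), T-like medium BPD against free R848 (-0.957 and -4.31 thinned, -1.93 at 3 UMIs, -4.04 with the replicate block), MC38-like free R848 against saline (-3.61 and -1.25 thinned) and MC38-like minus T-like (13.2 on all UMIs, 2.24 at 2000 UMIs). Leaving out single tumors gave -12.5 to 3.85 points for NK-like and -14.2 to 0.501 for T-like free R848 against saline, -4.70 to 9.75 for T-like medium BPD against free R848, -11.7 to 3.69 against saline, -13.4 to 2.74 for MC38-like medium BPD and -6.41 to 9.77 for free R848 against saline, -2.98 to 0.734 for MC38-like minus T-like, and 9.71 to 14.99 for T-like minus NK-like, which passed without free R848 replicate 3. The cause of these changes was not tested. Alternatives were compared for the members called or with the smallest p in each comparison. Mki67, Top2a, Pcna, Ccnb1, Mcm5 and E2f1 were added in monocyte/macrophage-like cells of medium BPD against saline tumors. None of these reversed its direction: over all alternatives, 612 values kept their side of the threshold, 66 no longer passed and 30 newly passed. Same-numbered tumors correlated from -0.254 to 0.227, over 0.1 in 1, 0, 3 and 1 of 7 pairs in the 4 classes. With so few tumors per group, deviations from a group mean are tied to each other, so this check cannot decide whether the numbers pair the tumors. Keeping the poor-quality cells gave no value, since no class took them. The fewest cells behind a sum over a whole class were 42 NK-like cells, in 1 of the 2 medium BPD tumors.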
